A study of Sus scrofa with 9 samples.

Results

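The elastic fibre and crosslinking genes of the minipig aorta were described from 10 genes chosen by name: ELN, FBN1, FBLN1, FBLN5, EFEMP2, MFAP4, EMILIN1, LOX, LOXL1 and LOXL2. Each of the 10 names had a single row among the 21357 genes of the expression table, so all members were found and none was merged or dropped. All samples were abdominal aortas from male Tibetan minipigs that were bought at a few months of age. NC pigs received a regular diet for 24 weeks. H8 pigs, which the labels call hypercholesterolemic, received the high-fat diet for 8 weeks, and H24 pigs, called atherosclerotic, received it for 24 weeks. The diet added shortening, cholesterol and egg yolk powder to the basal feed. Each group had 3 libraries, each from 1 pig. The control group was fed for 24 weeks, so in the comparison of H8 with NC the diet and the time on study cannot be told apart. H24 and H8 both ate the high-fat diet, for 24 and 8 weeks. Between them the time on the diet and the time on study cannot be told apart. If the pigs began at a like age, the H8 pigs were younger at sampling than those of both other groups.

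Elastic fibres give large arteries their recoil. Their core is elastin, which is secreted as soluble tropoelastin and laid down on a scaffold of fibrillin microfibrils. Fibulins carry tropoelastin and the crosslinking enzymes to this scaffold, and enzymes of the lysyl oxidase family, which need copper, oxidise lysines so that elastin and collagen chains become crosslinked. In the aorta smooth muscle cells lay down most of the elastin early in life, and the protein turns over very slowly, so transcript levels in a grown animal do not measure how much elastin is present.

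The libraries held between 44094263 and 75787978 counts, and the smallest count behind any member was 1321, for LOXL2 in H24 replicate 1. The vessel identity was checked with 8 smooth muscle markers, among which ACTA2, an actin of contractile cells, was at 2560 to 3261 FPKM in NC. FPKM is a fragment count scaled by exon length and library size, so it compares levels between genes. H24 replicate 3 stood apart: ACTA2 was at 545 FPKM against 2144 and 2976 FPKM in H24 replicates 1 and 2. The 8 macrophage markers summed to 1586 FPKM in this library, 237 and 151 FPKM in H24 replicates 1 and 2, 25.6 to 133 FPKM in H8 and 22.3 to 26.2 FPKM in NC. In bulk tissue, fewer cells of a type and less RNA per cell cannot be told apart. Nothing in the labels pairs the pigs across groups.

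In NC, ELN was the most abundant member at 1204 ± 296 FPKM (SD, n = 3). It ranked between 20 and 29 among all genes in the NC libraries. MFAP4, a microfibril-associated glycoprotein, followed at 721 ± 61.2 FPKM, FBLN5 at 188 ± 25.3 FPKM and FBLN1 at 102 ± 8.43 FPKM (SD, n = 3). These 4 genes kept their order in the NC means with no overlap of neighbouring ranges. LOXL1 (53.1 FPKM), EMILIN1 (49.4 FPKM), EFEMP2 (37.9 FPKM), LOX (28.8 FPKM) and FBN1 (26.2 FPKM) formed a middle group in which the NC ranges of each neighbouring pair overlapped. LOXL2 was lowest at 5.79 ± 1.83 FPKM (SD, n = 3), below every NC value of FBN1. The core protein and a microfibril glycoprotein were thus far above the crosslinking enzymes.

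**Figure D1:**
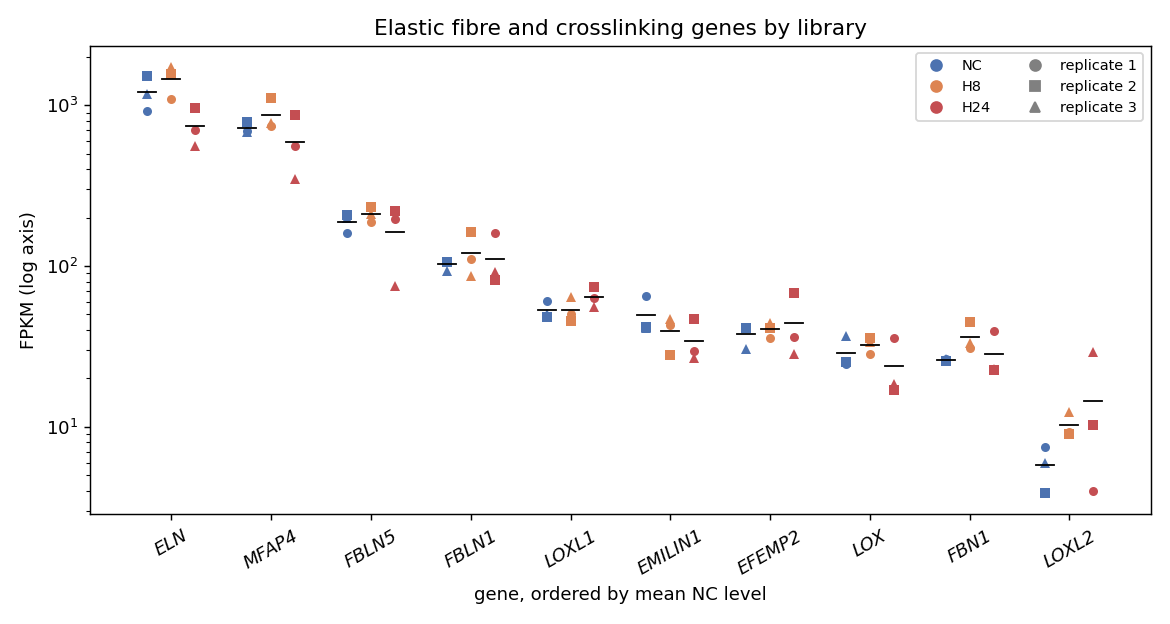
FPKM on a log axis of the 10 members in each of the 9 libraries, with genes ordered by their mean NC level; colours give the group, symbols the replicate and black bars the group mean (n = 3). The order from ELN to LOXL2 spans more than any difference between the groups, and ELN is the gene whose H24 points, 560 to 955 FPKM, all lie below its H8 points.

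To describe how these genes differed between the groups, each pair of groups was compared over all genes with edgeR's quasi-likelihood test. The thresholds followed the study: a called gene had a log2 fold change above 1 or below -1 and an unadjusted p-value under 0.05. Adjusted p-values are by the Benjamini-Hochberg method across every tested gene. All 10 members passed the filter on low values in every comparison. In H24/NC 0 of the 10 members were called, where 11.5% of all tested genes were, and no member had an unadjusted p-value under 0.05, as 13.9% of all genes did. DESeq2 likewise called 0 members in H24/NC, with 1 member (ELN) under an unadjusted p of 0.05, and limma had none under it. In H8/NC 0 members were called against 7.39% of all genes. In edgeR, DESeq2 and limma 2 members, FBN1 and LOXL2, had an unadjusted p-value under 0.05, as did 14.8% of all genes in edgeR. With all 9 libraries in one edgeR fit, the unadjusted p-value was 0.052 for FBN1 and 0.142 for LOXL2. In H24/H8 1 member, ELN, was called as lower, against 10.3% called in either direction and 3.05% called as lower among all genes, and it was the 1 member with an unadjusted p-value under 0.05, against 13.7% of all genes. No member passed an adjusted p of 0.05 in edgeR in any of the 3 comparisons, where 0%, 0.0279% and 0.0135% of all genes were called at that adjusted level in H24/NC, H8/NC and H24/H8. The lowest adjusted p-values of the members were 0.422 in H24/NC, 0.206 in H8/NC and 0.341 in H24/H8 (edgeR's quasi-likelihood test).

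The 10 members had a median log2 fold change of -0.08 in H24/NC, with 5 members above 0 and 5 below, beside a median of 0.01 over all tested genes, 50.6% of which were above 0. In H8/NC the median was 0.36, with 9 members above 0, beside 0.01 over all genes, 51.5% of which were above 0. In H24/H8 it was -0.44, with 8 members below 0, beside 0.04 over all genes, 47% of which were below 0. The 95% confidence interval stayed within a log2 fold change of 1 in either direction for 3 members in H24/NC, 6 in H8/NC and 2 in H24/H8. For the remaining members a log2 fold change past 1 lay inside the interval. The interval excluded 0 for FBN1 and LOXL2 in H8/NC and for ELN in H24/H8. H8/NC and H24/NC share the NC libraries, H24/NC and H24/H8 share the H24 libraries, and H8/NC and H24/H8 share the H8 libraries.

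**Figure D2:**
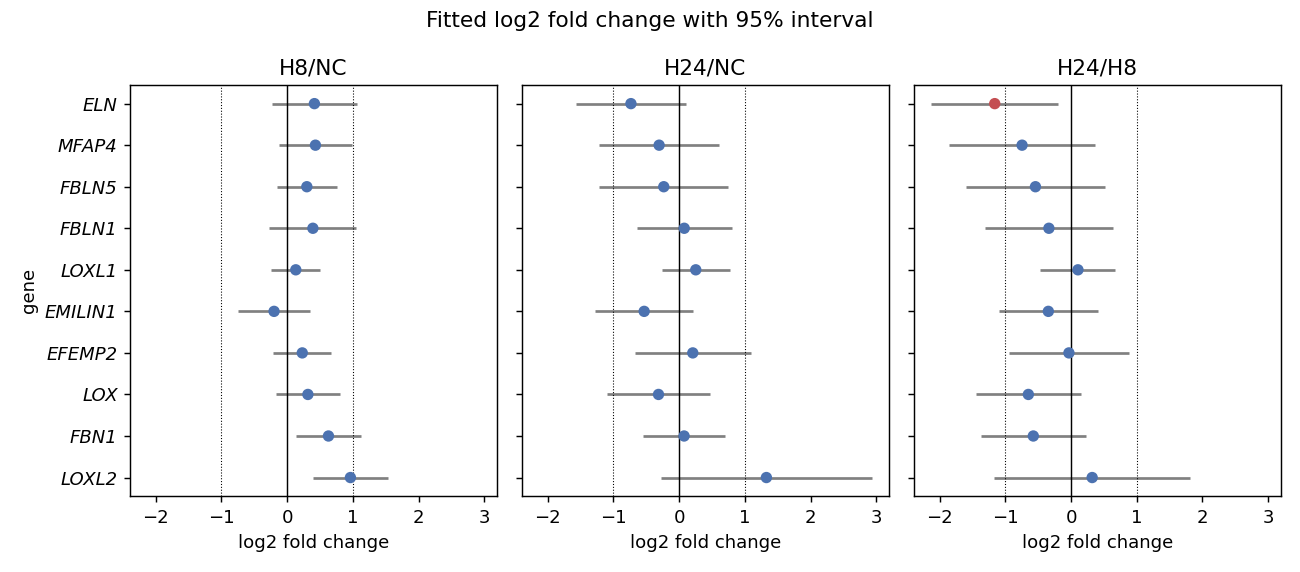
Fitted log2 fold change (points) and 95% confidence interval (lines) of each member in H8/NC, H24/NC and H24/H8, from edgeR; dotted lines mark a log2 fold change of 1 in either direction and red marks a called gene. ELN in H24/H8, at -1.16, is the single red point, and the LOXL2 interval in H24/NC is the widest of that panel.

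ELN, which encodes elastin, lies on chromosome 3 of Sscrofa11.1 (11214424 to 11244894). It was at 923, 1513 and 1177 FPKM in NC replicates 1 to 3, at 1092, 1571 and 1723 FPKM in H8, and at 699, 955 and 560 FPKM in H24. Every H24 library lay below every H8 library, whereas the highest H24 value overlapped the NC range. In H24/H8 ELN fell by 1.16 on the log2 scale (standard error, SE, 0.41, 95% interval -2.13 to -0.19, edgeR's adjusted p = 0.341). The exact two-sided permutation test of the FPKM gave p = 0.1, the smallest that 3 against 3 allow. Groups without overlap always give this value, so it adds nothing to the lack of overlap. Non-overlapping groups were found for 1 of the 10 members in H24/H8, against 21.8% of all genes in either direction and 6.31% with the first group lower. The ELN call was lost without H24 replicate 3 (log2 fold change -0.99), in limma (-0.99) and with scaling by library size only (-0.97), which fell short of the fold threshold. It was also lost without H24 replicate 1 (-1.10), H8 replicate 2 (-1.04) or H8 replicate 3 (-1.08), where the unadjusted p-value was above 0.05. The ELN value was negative in all 16 alternatives, from -1.45 to -0.97. In H24/NC the ELN log2 fold change was -0.73 (SE 0.35, edgeR's adjusted p = 0.422) and in H8/NC it was 0.42 (SE 0.27, edgeR's adjusted p = 0.521). ELN transcripts made up 0.228% to 0.374% of all counts in NC, 0.268% to 0.424% in H8 and 0.138% to 0.237% in H24.

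The microfibril genes gave no call. FBN1 (chromosome 1, 123101260 to 123359568) encodes fibrillin-1, the main microfibril protein, which is mutated in Marfan syndrome. It was nearly equal in the 3 NC libraries, at 26.5, 25.5 and 26.6 FPKM, and was 30.8, 45.1 and 33.4 FPKM in H8. All H8 values exceeded all NC values. The H8/NC log2 fold change was 0.63 (standard error 0.21, edgeR's adjusted p = 0.260), which is under the fold threshold. Without H8 replicate 2, the highest library, it was 0.36. The unadjusted p-value was above 0.05 when any one NC library was left out. In H24 the FBN1 values were 39.3, 22.7 and 22.8 FPKM and fell on both sides of the NC range, and in H24/NC 0 members had groups without overlap, against 20.6% of all genes. FBN1 had a log2 fold change of 0.08 in H24/NC (95% interval -0.55 to 0.70). FBN1 and LOXL2 were the 2 members whose H8 and NC ranges did not overlap, beside 22.8% of all genes without overlap in that comparison and 6.91% with H8 higher.

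MFAP4 (chromosome 12, 60141072 to 60144627) binds elastin and fibrillin. Its FPKM was 687, 792 and 685 in NC, 745, 1102 and 779 in H8, and 555, 874 and 348 in H24. H8 replicate 2 was the highest library and H24 replicate 3 the lowest, and all 3 groups overlapped. The log2 fold change was 0.43 in H8/NC, -0.30 in H24/NC and -0.74 in H24/H8, with adjusted p-values of 0.450, 0.779 and 0.496 (edgeR). The H8/NC value of MFAP4 was 0.14 without H8 replicate 2. In H24/H8 it was -1.20 without H24 replicate 2, past the study's thresholds, and -0.47 and -0.46 without H24 replicate 3 and H8 replicate 2. MFAP4 lies wholly inside the span of MAPK7 on the opposite strand. MAPK7 was at 5.21 to 13.4 FPKM over the 9 libraries, far below MFAP4, and reads of the overlap cannot be assigned without strand. EMILIN1 (chromosome 3, 112031945 to 112039933) encodes a glycoprotein at the interface of elastin and microfibrils. It was 65.1, 41.8 and 41.2 FPKM in NC, 43.1, 27.98 and 47.1 FPKM in H8, and 29.7, 46.9 and 26.7 FPKM in H24. The H24 libraries 1 and 3 were below every NC library, but replicate 2 lay inside the NC range. The EMILIN1 log2 fold change in H24/NC was -0.53 (SE 0.32, edgeR's adjusted p = 0.517).

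The fibulins differed in how their levels spread, and none was called. FBLN5 (chromosome 7, 113423632 to 113512182) encodes fibulin-5, which tethers tropoelastin to microfibrils and to cell-surface integrins. Its FPKM was 160, 206 and 199 in NC, 188, 233 and 210 in H8, and 196, 219 and 74.9 in H24. H24 replicates 1 and 2 were within or above the NC range, and replicate 3 was far below it. The H24/NC log2 fold change was -0.23 (SE 0.41, edgeR's adjusted p = 0.849), and it turned to 0.12 without H24 replicate 3. FBLN1 (chromosome 5, 3838211 to 3927217) encodes fibulin-1, found in elastic fibres and basement membranes. It was 108, 107 and 92.8 FPKM in NC, 110, 164 and 87.3 FPKM in H8, and 160, 81.6 and 91.2 FPKM in H24. A single library in each diet group was high, and the remainder were close to NC. EFEMP2 (chromosome 2, 6455508 to 6463491) encodes fibulin-4, which brings lysyl oxidase to tropoelastin. It was 41.5, 41.5 and 30.6 FPKM in NC, 35.8, 41.3 and 44.0 FPKM in H8, and 36.3, 68.0 and 28.4 FPKM in H24. Its highest and lowest values were both in H24. The log2 fold changes of FBLN1 and EFEMP2 in H24/NC were 0.08 (95% interval -0.64 to 0.80) and 0.21 (95% interval -0.67 to 1.09). EFEMP2 overlaps MUS81 on the opposite strand over 79 bases.

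Among the crosslinking enzymes LOX, LOXL1 and LOXL2, the fold change from NC was largest for LOXL2 and smallest for LOXL1 in both diet groups, and none of these 3 was called. LOX (chromosome 2, 125591789 to 125607594) encodes lysyl oxidase itself. Its level was 24.7, 25.2 and 36.5 FPKM in NC, 28.2, 35.4 and 33.6 FPKM in H8, and 35.9, 17.0 and 18.3 FPKM in H24. H24 replicates 2 and 3 were below all NC and H8 libraries, while replicate 1 was at the upper end. The LOX log2 fold change was -0.65 in H24/H8 (standard error 0.34, edgeR's adjusted p = 0.419), and without H24 replicate 1 it was -1.05, past the study's thresholds. LOXL1 (chromosome 7, 59481407 to 59505269) encodes the family member that is needed for elastin renewal in adult mice. It was 61.0, 48.2 and 50.1 FPKM in NC, 50.1, 45.3 and 63.9 FPKM in H8, and 63.0, 73.9 and 55.5 FPKM in H24. The whole range of LOXL1 over the 9 libraries was 1.53-fold on the normalised count scale, and 91.5% of genes with a mean of at least 1 FPKM ranged at least as widely. Its log2 fold change was 0.25 in H24/NC (95% interval -0.26 to 0.77) and 0.13 in H8/NC (95% interval -0.24 to 0.51).

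LOXL2 (chromosome 14, 7435033 to 7540958) encodes a lysyl oxidase with scavenger receptor domains, best known for crosslinking collagen IV. It was 7.52, 3.88 and 5.96 FPKM in NC, 9.26, 9.04 and 12.4 FPKM in H8, and 3.98, 10.3 and 29.4 FPKM in H24. All H8 libraries were above all NC libraries, and the H24 libraries ran from inside the NC range to far above it. The H8/NC log2 fold change was 0.96 (standard error 0.25, 95% interval 0.39 to 1.54, edgeR's adjusted p = 0.206). It missed the fold threshold by a small margin and passed it without NC replicate 1 (1.18) or without H8 replicate 1 (1.03). The H24/NC log2 fold change was 1.33 (standard error 0.68, 95% interval -0.28 to 2.93, adjusted p = 0.447, edgeR). It rested on H24 replicate 3, without which it was 0.30, and it passed the thresholds at 1.78 without H24 replicate 1. An unnamed gene, ENSSSCG00000039915, overlaps LOXL2 by 2386 bases on the opposite strand. Its FPKM of 2.37 to 4.86 in NC, 2.58 to 3.44 in H8 and 1.19 to 2.69 in H24 did not run parallel to that of LOXL2.

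As a share of the summed FPKM of the 5 lysyl oxidase genes, LOXL2 made up 4.34% to 6.80% in NC, 8.94% to 9.80% in H8, and 3.43%, 8.81% and 25.8% in H24 replicates 1 to 3. LOX made up 30.9% in H24 replicate 1 but 14.6% and 16.1% in replicates 2 and 3, against 22.3% to 33.7% in NC. LOXL1 was the largest part in every library, from 44.9% to 63.4%. The sum itself stayed between 89.4 and 127 FPKM over all libraries. Among the enzymes outside the 10 members, LOXL3 made up 8.72% to 15.1% and LOXL4 less than 2% of the sum.

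**Figure D3:**
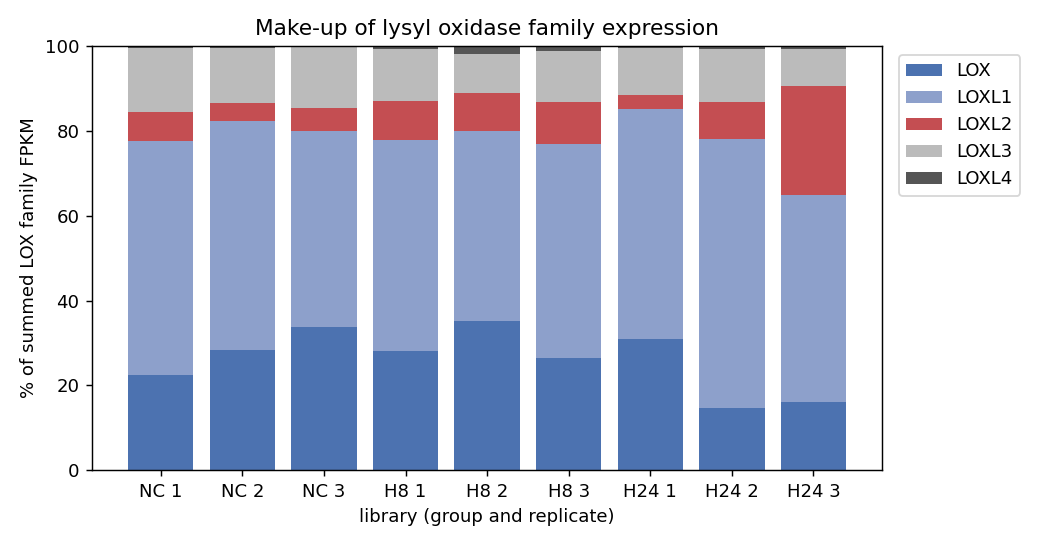
Share of each lysyl oxidase gene in the summed FPKM of LOX, LOXL1, LOXL2, LOXL3 and LOXL4, in percent, for each of the 9 libraries (stacked bars from 0 to 100). LOXL1 is the largest part of each bar, and the LOXL2 part is largest, at 25.8%, in H24 replicate 3.

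The spread within a group set the limits of these comparisons. The coefficient of variation of the FPKM was larger in H24 than in NC for 10 of the 10 members, as it was for 73.1% of 14512 genes, and larger in H8 than in NC for 4 members and 57.4% of the genes. Without H24 replicate 3, an alternative chosen after seeing the data, it was larger in H24 than in NC for 7 members and for 54.2% of the genes. In H24 it ranged from 14.4% for LOXL1 to 91.0% for LOXL2. H24 replicate 3 was below the whole NC range for 8 members and above it for LOXL2. H8 replicates 2 and 3 were each above the NC range for 6 members, and H24 replicate 2 for 5. On the normalised count scale H8 replicate 2 was the highest of the 9 libraries for 6 members.

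Set against the NC mean on the normalised count scale (log2 CPM with TMM scaling), H24 replicate 3 had a median difference of -0.53 over the 10 members. In the same library the 8 smooth muscle markers had a median difference of -3.01 and the 8 macrophage markers one of 6.01. In this library FBLN5 (-1.34), ELN (-1.09) and MFAP4 (-1.06) were the lowest members, and FBN1 (-0.22), FBLN1 (-0.18) and LOXL1 (0.06) were near NC. In H24 replicates 1 and 2 the members' medians were -0.06 and 0.13, beside smooth muscle medians of -0.55 and 0.06. H8 replicate 2 had a member median of 0.60 and a fibroblast marker median of 1.53, with 0.65 and 0.16 for the fibroblast list in H8 replicates 1 and 3. The fibroblast list medians were 0.92, 0.77 and 0.03 in H24 replicates 1 to 3. The 6 fibroblast markers summed to 1464 to 2181 FPKM in H8, 1241 to 1469 FPKM in H24 and 889 to 1130 FPKM in NC. Most of this sum was COL1A1. This gene was at 1068 to 1681 FPKM in H8, 771 to 1089 FPKM in H24 and 661 to 805 FPKM in NC. The 5 adipocyte markers summed to 3.67 to 10.2 FPKM in H8 and 12.9 to 41.8 FPKM in NC, and ADIPOQ and PLIN1, which define fat cells, were at or below 0.106 FPKM in every H8 library. Most of the H8 sum was LPL, which was not lower there, with means of 5.66 FPKM in H8 and 5.10 FPKM in NC. The part of these cell type markers in the members' levels was not tested. Among the smooth muscle markers MYH11, the contractile myosin heavy chain, had a log2 fold change of -1.28 in H24/NC (SE 0.73, edgeR's adjusted p = 0.4996) and ACTA2 one of -0.66 (SE 0.61, edgeR's adjusted p = 0.678), and none of the 8 was called (edgeR). CD68, a macrophage marker, rose by 5.60 on the log2 scale in H24/NC (SE 1.17, edgeR's adjusted p = 0.132). In that comparison 8 of the 8 macrophage markers were called as higher, beside 11.5% of all tested genes called in either direction. Without H24 replicate 3 the CD68 value was 3.38. The other lists moved less evenly in H24/NC, against the same 11.5% of all genes (edgeR). Called as higher were 3 of 5 tested T and B cell markers, 2 of 6 fibroblast markers and 2 of 5 adipocyte markers (LEP and LPL). The B cell marker CD79B went the other way, with means of 0.287 FPKM in NC and 0.0691 FPKM in H24. Of the endothelial markers 0 of 5 and of the tested skeletal muscle markers 0 of 2 were called.

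The fat cell markers ADIPOQ and PLIN1 had negative values in H24/NC (-1.82 and -2.22, edgeR's adjusted p = 0.604 and 0.529). ADIPOQ was at 7.24, 0.0705 and 0.416 FPKM in H24 replicates 1 to 3 and PLIN1 at 5.58, 0.134 and 0.213 FPKM, against NC means of 8.61 and 8.68 FPKM.

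**Figure D4:**
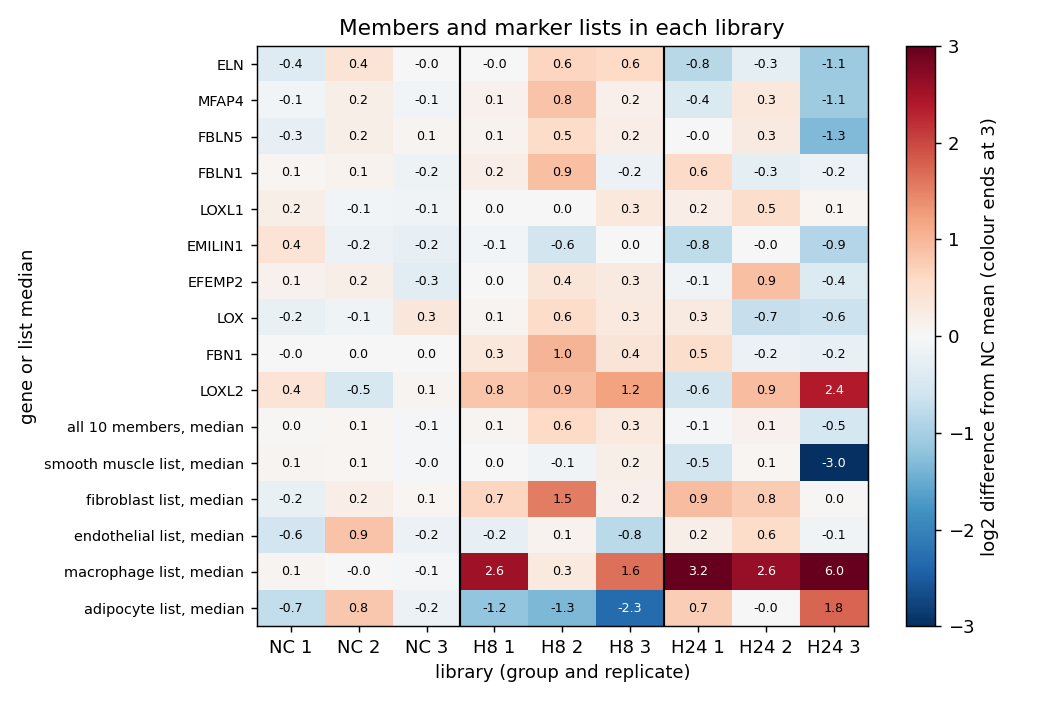
Log2 difference of each library from the NC mean for the 10 members and for the medians of the 10 members and of 5 marker lists; columns are libraries, blue is lower, red is higher and the colour scale ends at 3. In H24 replicate 3 the smooth muscle median is -3.01 while the median of the members is -0.53.

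The other genes of the pathway were read from a list of 29 names, of which 28 were in the table and 27 were tested; FBN3 was under the filter and ADAMTSL6 was not among the names. Their median log2 fold change was 0.08 in H24/NC, 0.10 in H8/NC and 0.00 in H24/H8. In H24/NC 4 of the 27 were called as higher and 1 as lower, beside 11.5% of all tested genes called in either direction. ITGB3, a subunit of the vitronectin receptor, rose by 2.73 on the log2 scale (SE 0.74, edgeR's adjusted p = 0.182). FBLN2, which encodes fibulin-2, was at 16.4, 27.5 and 13.7 FPKM in NC and at 40.3, 44.4 and 37.6 FPKM in H24, a log2 fold change of 1.05 (SE 0.32, edgeR's adjusted p = 0.223). EMILIN2 (log2 fold change 2.06) and GLB1 (1.57), the lysosomal beta-galactosidase whose splice variant is an elastin-binding protein, were also called as higher. FBLN2 was called as well without H24 replicate 3, with a log2 fold change of 1.11, as was ITGB3 with 1.33. Of the 16 alternatives for H24/NC, ITGB3 kept its call in 16 and FBLN2 in 13. The FBLN2 value went down to 0.85 when a library was left out. The EMILIN2 and GLB1 values went down to 0.96 and 0.75 when a library was left out. The number called in the list dropped from 5 to 2, FBLN2 and ITGB3, without H24 replicate 3. It was also 2 without NC replicate 1 and without NC replicate 3, and 3 without NC replicate 2.

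ADAMTSL4, which encodes a secreted protein that binds fibrillin-1 and is needed for the fibres that hold the eye lens, was the gene of the list with the smallest p-value in H8/NC. It was at 92.9, 148 and 115 FPKM in NC, at 48.8, 32.9 and 40.5 FPKM in H8, and at 70.5, 73.4 and 23.4 FPKM in H24. All diet libraries were below all NC libraries. In H8/NC ADAMTSL4 fell by 1.42 on the log2 scale (standard error 0.23, 95% interval -1.95 to -0.88, edgeR's adjusted p = 0.114). It was called in all 16 alternatives for that comparison, from -1.58 to -1.20. In H24/NC it fell by 1.12 (SE 0.46, edgeR's adjusted p = 0.347), and by 0.75, under the fold threshold, without H24 replicate 3. LOXL4, a lysyl oxidase at a low level, rose in H8/NC from 0.589, 0.524 and 0.326 FPKM to 0.808, 1.90 and 1.39 FPKM, a log2 fold change of 1.66 (SE 0.43, edgeR's adjusted p = 0.206). MFAP5 was also called as higher in H8/NC, at 1.48, and its value dropped to 0.43 without H8 replicate 2, where it was at 19.8 FPKM against 4.12 and 6.56 FPKM in the other H8 libraries. ITGB3 was close to the fold threshold in H8/NC, with a log2 fold change of 0.98 (edgeR's adjusted p = 0.201). In H24/H8 ITGB3 (1.70) and GLB1 (1.43) were called as higher and LOXL4 (-1.11) as lower. All 3 calls were lost without H24 replicate 3 and also without H8 replicate 3, and 1 call was left without H8 replicate 2. MMRN2 (-0.84) and EFEMP1, which encodes fibulin-3 (-0.90), were among the 3 genes of the list with the smallest p-values in H24/H8 but stayed under the fold threshold.

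Of 8 enzymes known to cleave elastin, 7 were in the table and 6 were tested. In H24/NC 4 of the 6 were called, all as higher, beside the 11.5% of all genes. MMP9, a gelatinase made by macrophages and neutrophils, was at 0.352, 0.174 and 0.375 FPKM in NC, at 2.39, 1.09 and 1.80 FPKM in H8 and at 13.0, 14.7 and 437 FPKM in H24. It rose by 2.68 on the log2 scale in H8/NC (SE 0.41, edgeR's adjusted p = 0.0937), with all H8 libraries above all NC libraries. MMP9 kept its H8/NC call in 15 of 16 alternatives. The call was lost with all 9 libraries in one edgeR fit (log2 fold change 2.66, edgeR's unadjusted p = 0.053). In H24/H8 the MMP9 log2 fold change was 6.26 (SE 1.56, edgeR's adjusted p = 0.336), and 2.83 without H24 replicate 3. CTSS, the macrophage cathepsin S, was at 4.08, 3.18 and 2.61 FPKM in NC, at 45.1, 4.41 and 11.2 FPKM in H8 and at 59.1, 16.4 and 399 FPKM in H24. Its log2 fold change was 2.72 in H8/NC and 5.57 in H24/NC (adjusted p = 0.211 and 0.132, edgeR). The H8/NC value of CTSS was 1.35 without H8 replicate 1, and the H24/NC value was 3.47 without H24 replicate 3. In H24/NC MMP12 (3.11) and CTSL (4.84) were called as higher too, and both calls were lost without H24 replicate 3, where the values were 1.60 and 0.84. The list then had 2 calls in place of 4, as it did without NC replicate 1 or 2. ELANE, the neutrophil elastase, was at 0.06 to 0.12 FPKM in H8 and 0.47 to 0.60 FPKM in NC, and was called as lower in H8/NC (-2.21). In H24/H8 4 of the 6 enzymes, MMP9, MMP12 (4.89), CTSL (4.13) and ELANE (2.32), were called as higher, where 10.3% of all genes were called. ELANE was at 0.33 to 0.93 FPKM in H24, on both sides of its NC range. Its H8 values rested on 6 to 9 counts per library, and those of MMP12 on 10 to 27. ELANE kept its H24/H8 call in 10 of 15 alternatives. CTSL was at 1.94, 0.998 and 66.5 FPKM in H24 replicates 1 to 3, and without replicate 3 its H24/H8 value was 0.18. Its call was also lost when any one H8 library was left out. The 8 macrophage markers were called as higher in H24/H8 as well, and the part of these cells in the enzymes' levels was not tested.

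**Figure D5:**
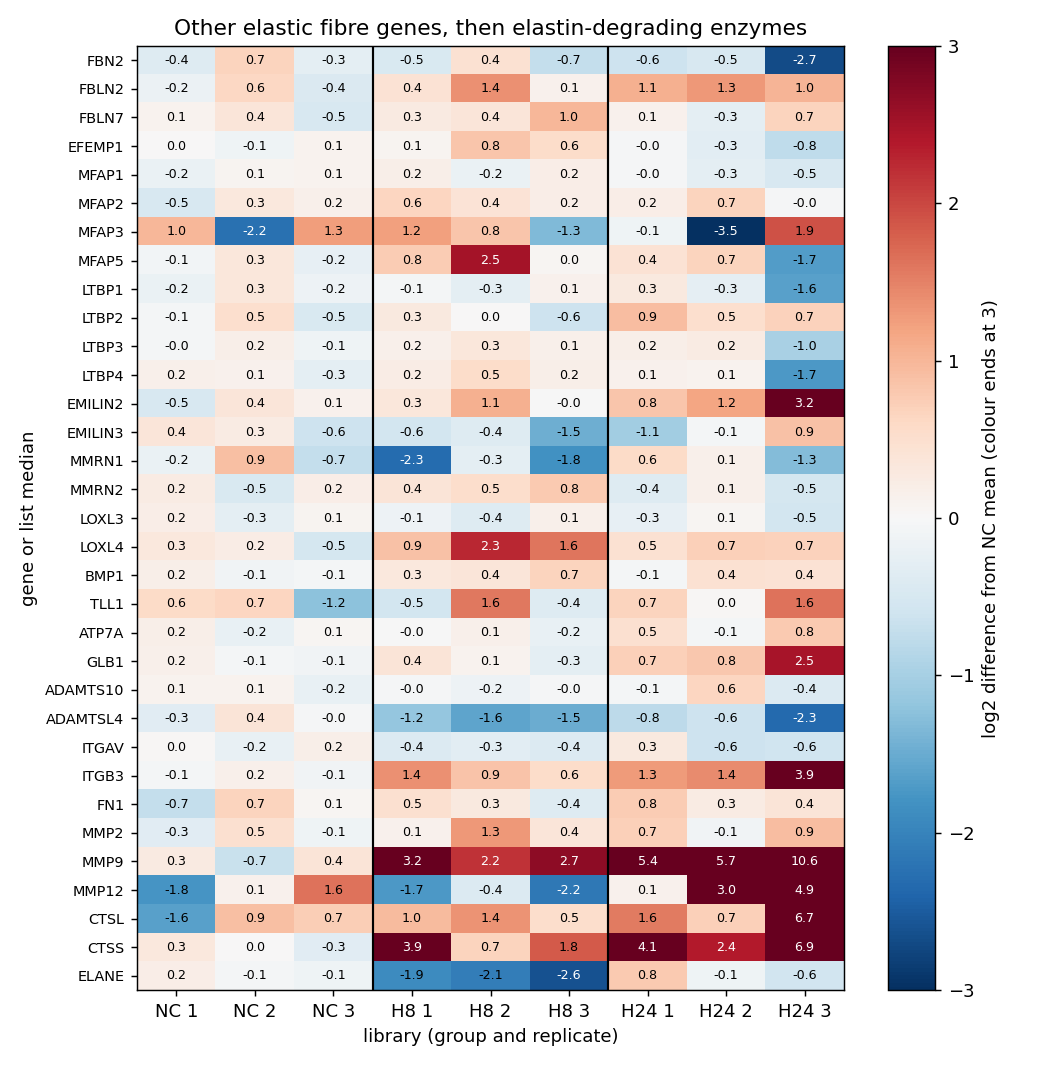
Log2 difference of each library from the NC mean for the other 27 tested elastic fibre genes and, in the last 6 rows, the elastin-degrading enzymes; columns are libraries and the colour scale ends at 3. ADAMTSL4 is below NC in all 6 diet libraries and MMP9 is above NC in all of them.

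Genes with a course like that of ELN were sought among 11238 genes with a mean of at least 1 FPKM, by the root mean square difference of centred log2 CPM over the 9 libraries. The closest were PELO (0.218), BAMBI (0.238), COL5A1 (0.248), E2F6 (0.263) and LRRC42 (0.264), beside a standard deviation of ELN itself of 0.602. COL5A1, a chain of the fibril-forming collagen V, was the matrix gene among these. For LOX the closest were LRP12 (0.150), POLR2K (0.167), ENSSSCG00000016949 (0.173), MOSMO (0.175) and NAB1 (0.176). Without H24 replicate 3, 1 of the 5 genes for ELN and 0 of the 5 for LOX were again among the closest 5, so this order depended on that library. The named genes then ranked from 2 (COL5A1) to 38 (LRRC42) for ELN and from 7 (LRP12) to 44 (NAB1) for LOX.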

How the data were processed

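RNA-seq of 9 abdominal aortas was analysed. The authors mapped paired-end poly(A) libraries to Sscrofa11.1 with HISAT 2.0 and deposited FPKM from StringTie 1.3.0; the labels also name Bowtie 0.12.2 and a mouse build, which do not go with a pig table. The deposited table also holds expected counts per gene, whole numbers whose derivation and annotation release are not given in the sources used here. Whether the library kit marked strand is not stated. Here the counts were tested with edgeR 4.0.16 in R 4.3.3 (TMM, legacy quasi-likelihood fit with a dispersion trend, 2 groups per fit) on genes whose FPKM averaged 0.1 or more. Standard errors are the log2 fold change over the root of the F statistic. limma 3.58.1 and DESeq2 1.42.0 were alternatives, and the data.table package (version 1.17.8) read the file. Log2 CPM had 0.5 counts added. Where a name had several rows (124 names), the row with the largest average FPKM stood for it. The method was tested on simulated counts with known changes, which were larger than those of the members. The simulation held no outlying library like H24 replicate 3, so it does not cover these data in that respect.

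The members and gene lists were chosen with earlier results of these data known, so no adjusted p over a list is given. Named genes were the 10 members, per comparison the 3 genes of each pathway list with the smallest p, ACTA2, MYH11, CD68, and the 5 genes most like ELN and LOX. MFAP5, and other called genes of these lists in a comparison where they were not among those 3, were named after their values were seen, as were LOXL3, ADIPOQ, PLIN1, LEP and LPL. Depth was 44094263 to 75787978 counts, at which 3 counts equal 0.0396 to 0.0680 CPM (counting error only). No protein or promoter sequence was used here.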

Additional observations from a re-analysis of the deposited data

How the results depend on the processing

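Of the 480 alternative values of the members' fold changes (16 settings in each of 3 comparisons), 448 kept their direction and their side of the thresholds, 7 lost and 5 gained a call, and 20 changed sign. The last were, in H8/NC, LOXL1 with limma on log2(FPKM + 0.1) (-0.0071), limma on log2(FPKM + 1) (-0.0069) and library size only (-0.011), and EMILIN1 without NC replicate 1 (0.033). In H24/NC they were FBN1 (-0.20) and FBLN1 (-0.24) without H24 replicate 1, EFEMP2 (-0.27) without H24 replicate 2, FBLN5 (0.12) without H24 replicate 3 and FBLN1 (-0.0023) without NC replicate 3. In H24/H8 EFEMP2 was at 0.036 and 0.037 in limma with pseudocounts of 0.1 and 1, 0.0058 with all 9 libraries in one fit, 0.15 with library size only, 0.11 and 0.21 without H24 replicates 1 and 3 and 0.052 without H8 replicate 2. LOXL2 was at -0.11 with the replicate block and -0.66 without H24 replicate 3, LOXL1 at -0.063 without H24 replicate 2 and FBLN1 at 0.035 without H8 replicate 2. MYH11 in H8/NC turned to 0.12 without H8 replicate 2 and 0.11 without NC replicate 1. With a library left out these ran in H24/NC from -0.54 to 0.12 for FBLN5 and -0.27 to 0.45 for EFEMP2, in H8/NC from -0.32 to 0.033 for EMILIN1, and in H24/H8 from -0.67 to 0.035 for FBLN1, -0.55 to 0.21 for EFEMP2 and -0.66 to 0.77 for LOXL2. The cause was not tested.

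In H24/H8 0 members were called in both limma fits and with library size only, and 0 to 2 when a library was left out; DESeq2 called 1 member at an adjusted p under 0.05. When a library was left out, 0 to 1 members were called in H24/NC and in H8/NC, and the H8/NC median of the members ranged from 0.16, without H8 replicate 2, to 0.44. The number of all genes called moved from 1700 to 855 in H24/NC, from 1059 to 343 in H8/NC and from 1519 to 694 in H24/H8 with limma on log2(FPKM + 1), and to 618 in H8/NC with a filter at a mean FPKM of 1. With a library left out it ranged from 1132 to 2251 in H24/NC, 845 to 1244 in H8/NC and 804 to 2091 in H24/H8, and was lowest without H24 replicate 3 in the first and without H8 replicate 2 in the last, where it was 912 without H24 replicate 3. DESeq2 gave 954, 616 and 650 genes at an adjusted p under 0.05 in H24/NC, H8/NC and H24/H8, against 0, 4 and 2 in edgeR. Scaling by library size only, added after the data were seen, moved the median of all genes to -0.13 in H8/NC and 0.24 in H24/H8, and the share of calls that were higher from 69.2% to 55.7% and from 70.3% to 83.3%. Relative to these shifts ELN stayed lower in H24/H8. In limma on log2(FPKM + 0.1) the medians were -0.12 and 0.18, and 47.3% of the H8/NC calls were higher.

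Same-numbered libraries did not deviate together, with correlations of their deviations between -0.054 and 0.069, so the replicate block pairs nothing known. With the block, 1364, 950 and 1275 genes were called in H24/NC, H8/NC and H24/H8, and 0, 0 and 1 members. With 3 pigs a group, most members' intervals were wide, as given above.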
